A study of Homo sapiens with 6 samples.

Results

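The zinc finger cluster of 19p13.2 is a 3.8 Mb stretch of human chromosome 19 that holds ZNF44, ZNF69 and ZNF559-ZNF177. Its H3K9me3 peaks were taken as all deposited peaks whose midpoint lies between 8.9 and 12.7 Mb of chromosome 19 in hg38. That gave 94 of 14087 peaks with PURPL guide 1, 74 of 11721 with PURPL guide 2 and 129 of 22627 with the control guide, 297 in all, counted on chromosomes 1 to 22 and X. H3K9me3, the trimethylation of lysine 9 of histone H3, was mapped by chromatin immunoprecipitation and sequencing in BJ, an established line of human skin fibroblasts. All 3 cell lines carried CRISPR interference (CRISPRi), a method that silences a gene by tethering a repressor to it through a guide RNA. In the first the guide was sgRNA-PURPL#1 (guide 1), in the second sgRNA-PURPL#2 (guide 2), both against the long non-coding RNA gene PURPL, and in the third a control guide, sgCtrl. Each line gave 1 H3K9me3 library and 1 input library. The labels give no time after the guide was introduced, and do not say whether a line is a clone or a pool. With 1 library per line no difference has a replicate check, so no test of a difference between lines was possible. Both guide comparisons use the same control library.

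Zinc finger genes of the KRAB class encode DNA-binding repressors, and many of their proteins silence transposable elements. They arose by repeated duplication and stand in clusters, a large share of them on chromosome 19. In many cell types the bodies of these genes carry H3K9me3 themselves, above all over the 3′ exon that encodes the zinc fingers, where ZNF274 and the corepressor TRIM28 bring the methyltransferase SETDB1. Their promoters usually stay free of the mark.

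Promoters of these genes were almost free of peaks, and 3 are printed to show where the mark reached one and where it did not. Each window runs from 250 bases before to 50 bases after a transcription start, in RefSeq GRCh38.p14, and is given 5′ to 3′ on the strand of its gene. The ZNF177 window (chr19:9362763-9363062, plus strand) was the single window of a zinc finger gene in the region that any peak reached, and its capitals mark the 122 bases under a guide 1 peak. The windows of ZNF44 (chr19:12294834-12295133, minus strand) and ZNF69 (chr19:11887532-11887831, plus strand) lay outside all peaks, and there the capitals mark CG dinucleotides.
ZNF177: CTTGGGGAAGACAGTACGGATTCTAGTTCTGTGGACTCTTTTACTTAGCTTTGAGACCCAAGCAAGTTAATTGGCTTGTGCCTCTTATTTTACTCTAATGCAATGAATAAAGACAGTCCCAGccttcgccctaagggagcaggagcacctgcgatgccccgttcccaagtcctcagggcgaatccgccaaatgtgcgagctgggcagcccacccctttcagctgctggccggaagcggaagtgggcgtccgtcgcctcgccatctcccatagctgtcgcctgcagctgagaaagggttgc
ZNF44: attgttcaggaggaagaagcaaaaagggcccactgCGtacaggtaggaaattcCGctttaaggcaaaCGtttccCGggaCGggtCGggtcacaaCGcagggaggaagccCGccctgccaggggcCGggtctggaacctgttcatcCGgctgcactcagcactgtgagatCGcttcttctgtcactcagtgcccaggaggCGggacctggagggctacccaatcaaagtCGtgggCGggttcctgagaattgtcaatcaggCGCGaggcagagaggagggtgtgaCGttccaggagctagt
ZNF69: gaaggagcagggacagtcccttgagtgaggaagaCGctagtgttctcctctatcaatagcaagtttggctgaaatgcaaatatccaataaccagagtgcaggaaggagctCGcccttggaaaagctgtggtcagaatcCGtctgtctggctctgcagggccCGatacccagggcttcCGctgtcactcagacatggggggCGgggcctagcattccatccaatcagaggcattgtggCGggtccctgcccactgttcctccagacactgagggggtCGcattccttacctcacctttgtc
The ZNF44 window holds 17 CG dinucleotides and the ZNF69 window 8, against a median of 17.5 over the 36 windows of the zinc finger genes here. The ZNF177 window holds 14.

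Whole-list values set the scale. The guide 1 list held 62.3% and the guide 2 list 51.8% as many peaks as the control list, and the length under peaks was 17.0 Mb and 13.1 Mb against 32.3 Mb in the control. How deeply the libraries were sequenced is unknown, and its part in any difference was not tested. The body of PURPL on chromosome 5 held 0 bases under peaks in all 3 lists. Of 10 fibroblast marker genes, 0 carried a peak with guide 1, 0 with guide 2 and 1 with the control guide, where COL1A2 had 827 bp. Peaks do not measure expression, so neither value shows how far PURPL was lowered or checks the cell type.

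Less of the 19p13.2 cluster lay under H3K9me3 peaks with either PURPL guide than in the control line. Peaks covered 195 kb with guide 1, 82.4 kb with guide 2 and 413 kb with the control guide, which is 5.13%, 2.17% and 10.9% of the region. Guide 1 thus had 47.2% of the control length and guide 2 had 19.9%. The number of peaks differed less, at 72.9% of the control number with guide 1 and 57.4% with guide 2. The number depended on the lists compared, since with equal numbers of top-scoring peaks per list it came to 118% and 114%, while the length stayed below the control. At scores of 22, the pooled median, or more, guide 2 had 8.93% of the control length. Over the whole lists, 52.4% and 40.3% of the control length was left. The guide 2 list therefore had a smaller share of its length here, 0.631%, than the guide 1 list with 1.15% and the control list with 1.28%. The region holds 112 coding genes, of which 37 are zinc finger genes, 7 are olfactory receptor genes and 68 belong to other families.

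The mark lay in 2 blocks with a stretch nearly free of peaks between them. The first, from 9.25 to 9.8 Mb, holds 11 coding genes that are all zinc finger genes and includes ZNF559-ZNF177. It had 26 peaks over 61.6 kb with guide 1, 18 peaks over 18.6 kb with guide 2 and 42 peaks over 133 kb with the control guide. The second, from 11.5 to 12.7 Mb, holds 34 coding genes, 24 of them zinc finger genes, among them ZNF69 and ZNF44. It had 59 peaks over 124 kb with guide 1, 55 peaks over 62.3 kb with guide 2 and 78 peaks over 259 kb with the control guide. With guide 1 the blocks had nearly the same share of their control length, 46.2% in the ZNF559-ZNF177 block and 48.0% in the ZNF69 and ZNF44 block. With guide 2 the shares were 14.0% and 24.0%.

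Between these blocks, from 9.8 to 11.5 Mb, stand 58 coding genes of which ZNF653 is the one zinc finger gene. This middle stretch had 4 peaks over 3.55 kb with guide 1, 1 peak over 1.44 kb with guide 2 and 4 peaks over 6.85 kb with the control guide. DNMT1, the maintenance DNA methyltransferase gene, and SMARCA4, a chromatin remodeller gene, lie there and had 0 bases under peaks in all 3 lists; they were named for their known roles after their values were seen. At the start of the region, from 8.9 to 9.25 Mb, stand the mucin gene MUC16, the 7 olfactory receptor genes and ZNF317. All peaks there lay on ZNF317, with 5 peaks over 5.53 kb with guide 1, 0 with guide 2 and 5 peaks over 13.6 kb with the control guide.

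**Figure D1:**
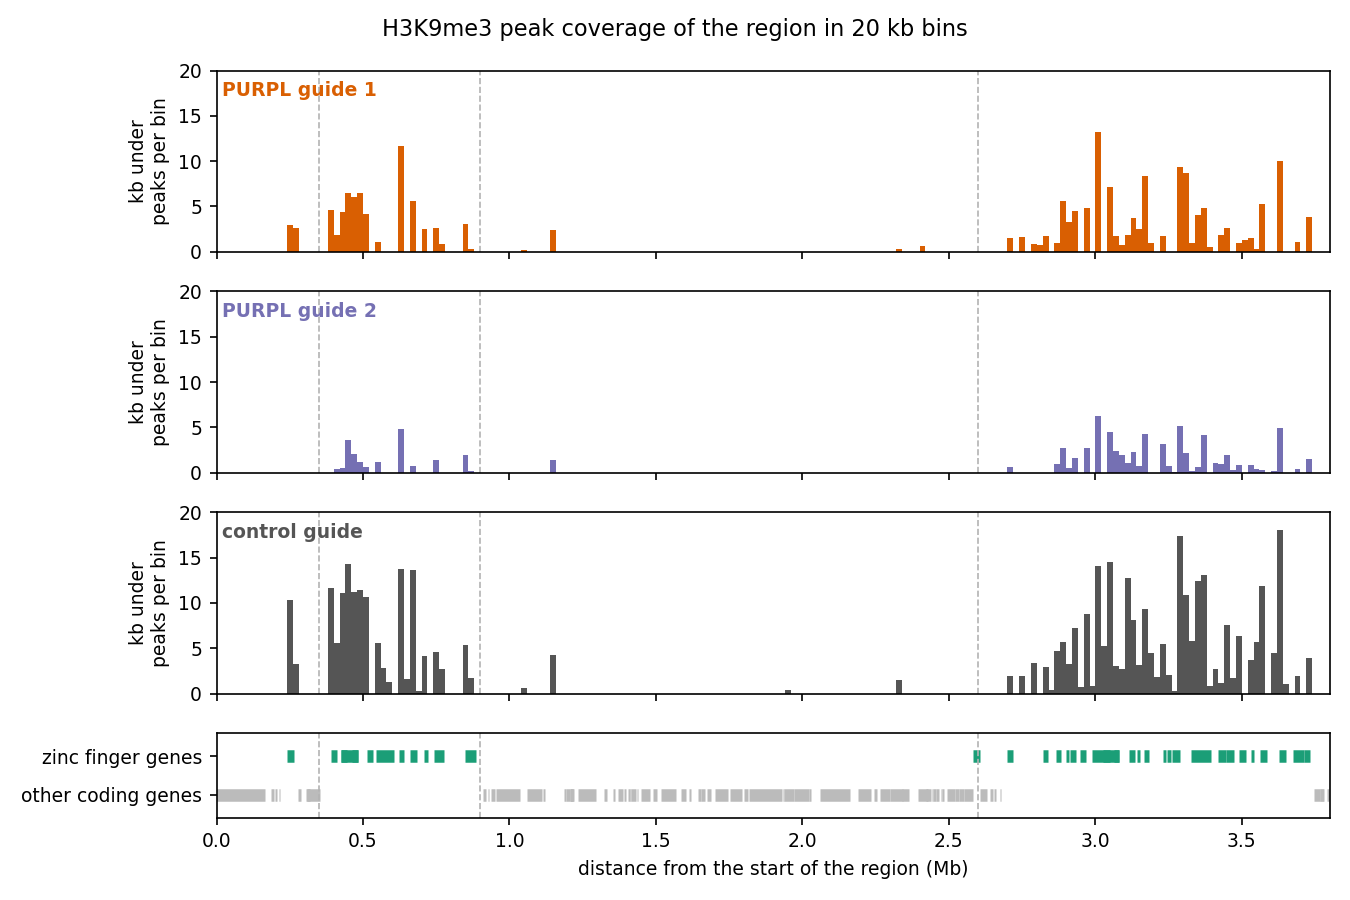
Length under H3K9me3 peaks (kb) in each 20 kb bin of the region, against the distance from its start (Mb), for PURPL guide 1, PURPL guide 2 and the control guide from top to bottom; the lowest panel shows gene bodies, and dashed lines bound the 4 blocks. Of 190 bins, 57, 47 and 70 hold covered bases, and the fullest hold 13.2, 6.22 and 18.0 kb with guide 1, guide 2 and the control guide; the coverage sits over the 2 groups of zinc finger genes.

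Other zinc finger clusters of chromosome 19 also had less coverage with both guides. In the cluster at 19q13.1, from 36.0 to 38.0 Mb, peaks covered 287 kb with guide 1, 120 kb with guide 2 and 568 kb with the control guide, so 50.5% and 21.1% was left. In the distal clusters, from 52.0 to 58.6 Mb, they covered 364, 125 and 757 kb in that order of lines, with 48.1% and 16.5% left. The 19p12 cluster, from 20.0 to 24.2 Mb, had 112, 28.1 and 314 kb, with 35.8% and 8.95% left. The shares of 19p13.2, 47.2% and 19.9%, lie inside the range of these 3 clusters for each guide.

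**Figure D2:**
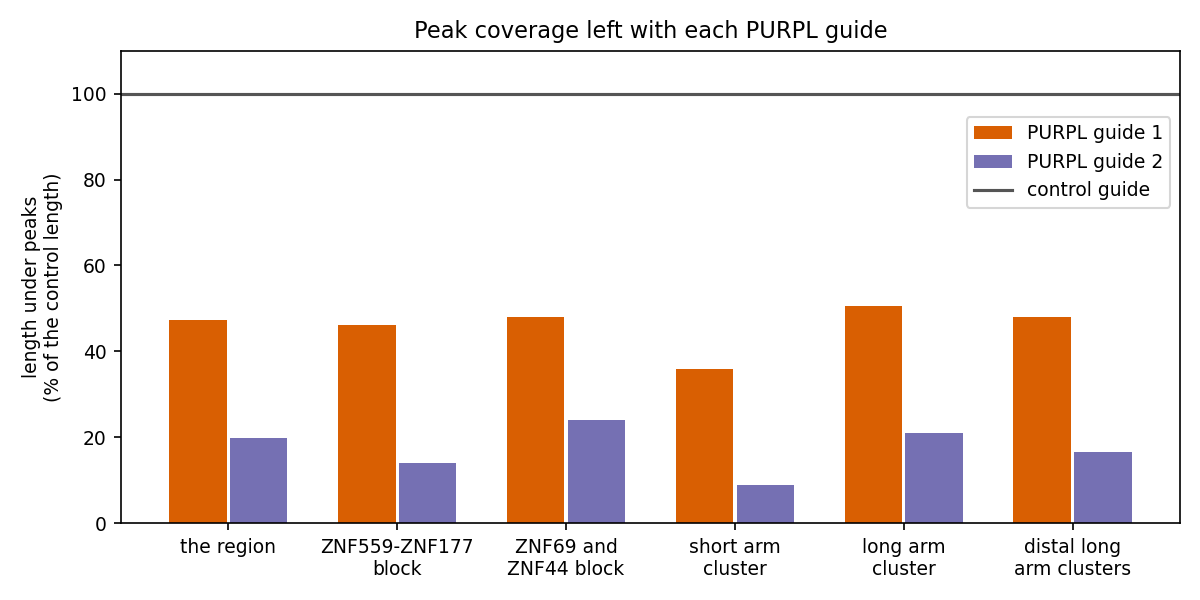
Length under H3K9me3 peaks with PURPL guide 1 and PURPL guide 2 as a percentage of the control length (the line at 100%), for the 19p13.2 region, its 2 zinc finger blocks and the other zinc finger clusters of chromosome 19, with 1 library per bar. The guide 2 bar is the lower one in all 6 places, and the short arm cluster, at 19p12, has the lowest pair, 35.8% and 8.95%.

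Wide peaks were fewer with both guides. Median width was 1278 bp with guide 1, 728 bp with guide 2 and 1444 bp with the control guide. Peaks of at least 5 kb numbered 8 with guide 1, 0 with guide 2 and 30 with the control guide, and held 28.4%, 0% and 68.4% of the bases under peaks. Over the whole lists such peaks numbered 310 with guide 1, 178 with guide 2 and 936 with the control guide, so they were fewer outside the region as well. Peaks of at least 10 kb numbered 0, 0 and 13. The 3 widest guide 1 peaks measured 8.52 kb on ZNF844, 8.29 kb on ZNF564 and 8.24 kb on ZNF69. The 3 widest guide 2 peaks measured 4.61 kb on ZNF426, 4.29 kb on ZNF69 and ZNF763, and 4.03 kb on ZNF844. The 3 widest control peaks measured 19.8 kb on ZNF69 and ZNF700 (chr19:11934745-11954497), 17.2 kb on ZNF564 (chr19:12515946-12533152) and 14.9 kb on ZNF177 (chr19:9373884-9388827). No guide 2 peak in the region reached 5 kb, the limit by which the 30 wide control peaks were counted.

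**Figure D3:**
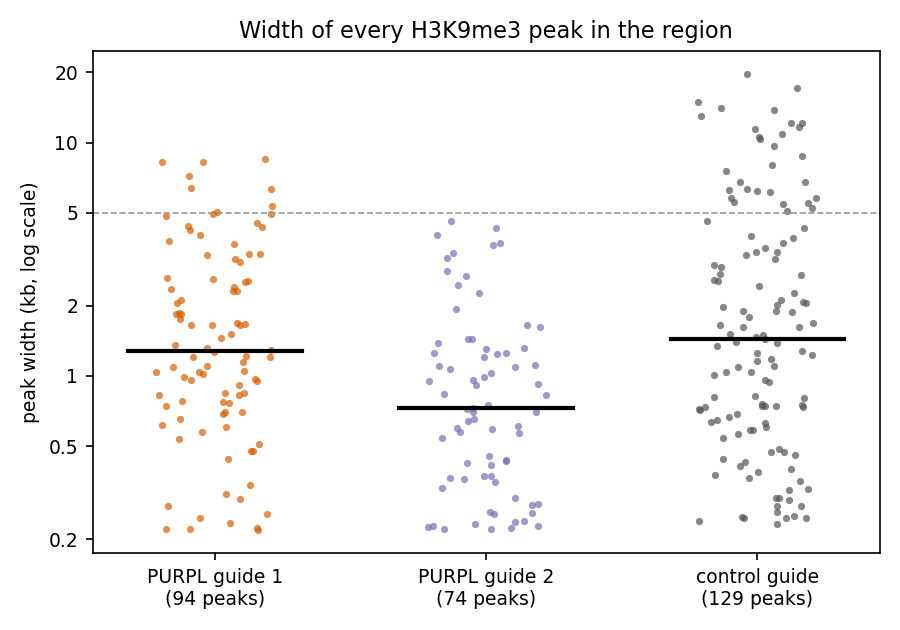
Width (kb, log scale) of every H3K9me3 peak in the region with PURPL guide 1, PURPL guide 2 and the control guide; each point is 1 peak, black lines mark medians of 1278, 728 and 1444 bp, and the dashed line marks 5 kb. Above that line are 8 guide 1 peaks, 0 guide 2 peaks and 30 control peaks.

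The authors' score per peak, of unnamed scale, ran from 10 to 43 with guide 1, from 11 to 40 with guide 2 and from 11 to 49 with the control guide. Within its own list the median peak of the region stood above 35.4% of all guide 1 peaks, 31.4% of all guide 2 peaks and 47.7% of all control peaks. The 3 highest scores with guide 1 were 43 on ZNF69, 43 on ZNF136 and 38 on ZNF317. Those with guide 2 were 40 on ZNF177, 40 on ZNF69 and 37 on ZNF426. Those with the control guide were 49 on ZNF564, 45 on ZNF426 and 44 on ZNF791. The peak with score 49 is also the second widest of the control.

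Whether the guides kept a control peak went with its width. By at least 1 bp, guide 1 peaks overlapped 60 of the 129 control peaks (46.5%, 95% Wilson interval 38.1 to 55.1) and guide 2 peaks 42 (32.6%, 25.1 to 41.0). The intervals cover counting error only. The shares depend on the overlap rule, at 20.2% and 2.33% under a limit of 50% of the peak and 86.0% and 70.0% of control domains once peaks within 5000 bp were joined. Neither alternative was counted over the whole lists. By at least 1 bp, control peaks without a guide 1 peak made up 53.5%, against 57.2% over the whole control list. Those without a guide 2 peak made up 67.4%, against 63.8%. Control peaks without a peak of either guide numbered 65 (50.4%, 41.9 to 58.9), against 50.1% of all control peaks. These shares are close to those of the whole list.

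Guide 1 peaks overlapped all 30 control peaks of at least 5 kb (Wilson interval 88.6% to 100%), and guide 2 peaks overlapped 26 (86.7%, 70.3 to 94.7). Of the 48 control peaks from 1 kb to under 5 kb, 25 (52.1%) and 15 (31.2%) overlapped guide 1 and guide 2. Of the 51 control peaks under 1 kb, 5 (9.80%) and 1 (1.96%) did. A wider peak also offers more bases for an overlap of 1 bp. Counted over bases instead, 48.9% of the bases of the widest class lay under guide 1 peaks and 22.9% under guide 2 peaks. For the narrowest class these shares were 6.18% and 1.14%. Score went the same way. Guide 1 and guide 2 overlapped 67.7% and 50.8% of control peaks at or above the region's median control score. For those below it the shares were 25.0% and 14.1%. Width and score classes were not counted over the whole control list, so these values do not set the region apart.

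Most of the wide control peaks were covered in part with the guides. Guide 1 had 1 peak on 15 of the 30 and at least 2 peaks on the other 15, and its peaks covered a median of 45.7% of their width, from 1.25% to 84.9%. Guide 2 had no peak on 4 of them, 1 peak on 15 and at least 2 on 11, and covered a median of 23.9%, from 0% to 78.2%. The 19.8 kb peak on ZNF69 and ZNF700 held 5 guide 1 peaks over 36.2% of its width and 3 guide 2 peaks over 22.5%. The 14.9 kb peak on ZNF177 held 3 guide 1 peaks over 70.5% and 5 guide 2 peaks over 18.8%. Each of these stretches was chosen as 1 control peak, so its single peak in the control is no result. The reverse count, of control peaks on wide guide peaks, was not made. With peaks closer than 5 kb joined, the region held 55 domains with guide 1, 45 with guide 2 and 50 with the control guide, over 270, 138 and 563 kb. The longest joined domain was 16.0 kb with guide 1 and 15.1 kb with guide 2, against 80.4 kb with the control guide (chr19:9322935-9403316), the last across ZNF559-ZNF177.

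Most guide peaks overlapped a control peak, here and over the whole lists. Of the guide 1 peaks 14 of 94 overlapped no control peak (14.9%, against 20.8% over the whole list), and of the guide 2 peaks 11 of 74 (14.9%, against 17.1%). Of these, 11 of the 14 and 10 of the 11 stood within 5000 bp of a control peak, a count not made over the whole lists. The highest-scoring ones with guide 1 had a score of 21 in ZNF559-ZNF177 (chr19:9361831-9362884), 20 outside coding genes (chr19:12203215-12203653) and 19 on ZNF317 (chr19:9156560-9157037). With guide 2 they had a score of 37 on ZNF426 (chr19:9537233-9537469), 32 outside coding genes (chr19:12512425-12512651) and 27 on ZNF791 (chr19:12625557-12625782). The first 2 of these guide 2 peaks scored above 80.3% and 74.0% of the peaks in their list and overlapped no guide 1 peak.

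By bases, 88.3% of the length under guide 1 peaks and 91.7% of that under guide 2 peaks also lay under control peaks. Over the whole lists these shares were 75.3% and 77.0%. Of the 440 kb under any list, 57.4 kb lay under all 3 lists, 115 kb (26.1%) under guide 1 and the control guide, 18.2 kb (4.13%) under guide 2 and the control guide, and 223 kb (50.6%) under the control guide alone. Bases under both guides and not the control guide came to 2.59 kb. Guide 1 alone had 20.3 kb and guide 2 alone 4.22 kb. Among guide 1 peaks 42 of 94 (44.7%) overlapped a guide 2 peak, against 55.0% over the whole guide 1 list. Among guide 2 peaks 54 of 74 (73.0%) overlapped a guide 1 peak, against 68.6% over the whole guide 2 list.

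Nearly every zinc finger gene of the region carried a peak in its body in each line, and nearly every one carried less with the PURPL guides. Such peaks were found on 35 of 37 genes with guide 1 (94.6%, against 6.55% of all 19974 coding genes), on 33 with guide 2 (89.2%, against 3.73%) and on 36 with the control guide (97.3%, against 13.1%). In the 19q13.1 cluster 88.5%, 84.6% and 92.3% of the zinc finger genes were marked with guide 1, guide 2 and the control guide. At 19p12 the shares were 65.6%, 34.4% and 87.5%, and in the distal clusters 65.3%, 48.4% and 70.5%. Over all zinc finger genes outside the region they were 48.6%, 37.2% and 58.4%. Together the 37 bodies had 160 kb under peaks with guide 1, 71.6 kb with guide 2 and 312 kb with the control guide, which is 51.2% and 23.0% of the control value. The bodies make up 23.6% of the region and held 81.8%, 86.9% and 75.4% of the bases under peaks with guide 1, guide 2 and the control guide. At scores of 22 or more, 23 genes were marked with guide 1, 16 with guide 2 and 32 with the control guide. None of the 7 olfactory receptor genes had a covered base in any list. Of the 68 other coding genes 2, 0 and 2 were marked with guide 1, guide 2 and the control guide.

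With both guides, coverage fell short of the control on 35 of the 36 control-marked zinc finger genes (97.2%, against 92.6% of all 2610 control-marked coding genes), and coverage was longer in both for 0. Per gene, a median of 49.6% of the control coverage was left with guide 1 (0% to 100%) and 26.9% with guide 2 (0% to 81.0%). Guide 1 left at least 50% of the control coverage on 16 of the 36 genes and guide 2 on 2. Less than 10% was left on 1 gene with guide 1 and on 8 genes with guide 2. Counts at these limits were not made for other genes. The median share left was 41.2% with guide 1 and 9.31% with guide 2 over control-marked zinc finger genes elsewhere. Over all control-marked coding genes it was 0% with each guide. Control-marked genes without any peak numbered 1 of 36 with guide 1 and 3 of 36 with guide 2, where 58.9% and 76.9% of all control-marked coding genes had none. Among the 281 control-marked zinc finger genes elsewhere in the genome, 51 and 103 had none. These sets were not matched for control coverage, and any covered base made a gene control-marked. How far control coverage accounts for these medians and counts was not tested. The zinc finger genes elsewhere, 481 in all, had 48.1% and 18.7% of their control coverage with guide 1 and guide 2. Guide 2 coverage exceeded guide 1 coverage at 3 genes, ZNF763, ZNF20 and ZNF625 (8.33%, against 9.66% of all control-marked coding genes).

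Duplicated zinc finger genes resemble each other in sequence, and reads that fit more than 1 of them can be placed on either; how this bears on the values of single genes was not tested. Neighbouring annotations also overlap. ZNF559-ZNF177 is a readthrough gene whose body takes in ZNF559 and ZNF177, the annotated body of ZNF69 takes in ZNF700 and most of ZNF763, and ZNF563 overlaps ZNF442, so these genes share covered bases.

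The 3 genes that define the region had the longest control coverage in it. ZNF559-ZNF177 (gene ID 100529215, chr19:9324179-9382617) had 19443 bp under peaks with guide 1, 6486 bp with guide 2 and 39051 bp with the control guide. That left 49.8% and 16.6%. Its ZNF559 portion had 9385, 4108 and 16757 bp in the same lines, and its ZNF177 portion 7588, 2378 and 12660 bp. Within this gene guide 1 had 8 peaks, guide 2 had 6 and the control guide had 10.

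ZNF69 (gene ID 7620, chr19:11887782-11980222, plus strand) had 22016 bp under peaks with guide 1, 13223 bp with guide 2 and 37884 bp with the control guide, so 58.1% and 34.9% was left. It was called as more and shorter peaks, 9 with guide 1, 10 with guide 2 and 4 with the control guide. Its longest peak was 8244 bp with guide 1, 4288 bp with guide 2 and 19753 bp with the control guide. ZNF700, inside it, had 4202, 3148 and 16019 bp with guide 1, guide 2 and the control guide, and kept less, 26.2% and 19.7%.

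ZNF44 (gene ID 51710, chr19:12224686-12294883, minus strand) had 10353 bp under peaks with guide 1, 4901 bp with guide 2 and 29230 bp with the control guide. With 35.4% and 16.8% left, it kept the least of the 3 with guide 1. It had 5 peaks with guide 1, 4 with guide 2 and 8 with the control guide. It also stands among the 5 genes of the region with the smallest share left, by the higher of the guides and among the 33 genes with at least 2000 bp in the control.

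Of the other genes with long control coverage, some were almost bare with guide 2. ZNF699 had 6440 bp with guide 1, 435 bp with guide 2 and 13989 bp with the control guide. ZNF317 had 5528, 0 and 13649 bp in these lines, and ZNF121 had 5566, 699 and 13558 bp. All 3 had 40.5% to 46.0% of the control coverage with guide 1 and 5.16% or less with guide 2. ZNF564 had 6738, 3716 and 13629 bp, and ZNF433 5591, 3378 and 12506 bp; these had 49.4% and 44.7% left with guide 1, and 27.3% and 27.0% with guide 2. ZNF426 had 9511, 4850 and 11631 bp.

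ZNF426 was also among the 5 genes that kept the most, ranked by the lower of the guides. It had 81.8% of its control coverage with guide 1 and 41.7% with guide 2, and the highest covered share of a body in the guide 1 list, 61.7%. ZNF844 had 9293 bp with guide 1, 4254 bp with guide 2 and 10941 bp with the control guide (84.9% and 38.9% left). ZNF136 had 7213, 4170 and 9974 bp in these lines (72.3% and 41.8%). ZNF441 had 3696, 2971 and 7818 bp (47.3% and 38.0%). ZNF763 had 1701, 2952 and 3643 bp (46.7% and 81.0%), with more coverage with guide 2 than with guide 1. At scores of 22 or more, guide 2 had 2.04% of the control coverage at ZNF426, 0% at ZNF844, 12.9% at ZNF136, 24.0% at ZNF441 and 0% at ZNF763. The order of the guides at ZNF763 turned there too, with 27.9% left with guide 1, and with peaks within 5000 bp joined, where guide 1 had 98.6% and guide 2 had 81.0%. ZNF20 also had more with guide 2, with 1759 bp with guide 1, 3201 bp with guide 2 and 4702 bp with the control guide.

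At the other end, by the higher of the guides among the 33 genes with at least 2000 bp in the control, ZNF560 stood lowest, with 1043 bp with guide 1, 743 bp with guide 2 and 9600 bp with the control guide (10.9% and 7.74% left). At equal peak numbers it had 36.3% and 25.9% left. By guide 2 alone and in the full lists ZNF560 was not the lowest. There ZNF317, ZNF561, ZNF823, ZNF878, ZNF709, ZNF699 and ZNF121 had a smaller share left, from 0% to 5.16%. ZNF560 had 9 control peaks, all under 4 kb, the longest 3518 bp. ZNF799 had 964, 829 and 3040 bp with guide 1, guide 2 and the control guide, and ZNF563 had 1848, 1647 and 5117 bp. ZNF700 and ZNF44, described above, complete this group.

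Some genes were marked in some lines and not in others. ZNF625 had 0 bp with guide 1, 750 bp with guide 2 and 2028 bp with the control guide. ZNF561 had 2498, 0 and 3801 bp in these lines and ZNF823 had 1549, 0 and 2260 bp, which together with ZNF317 are the control-marked genes without a guide 2 peak. ZNF653, the zinc finger gene that stands alone beside the second block, had 0 bp in all 3 lists. ZNF491 was the one control-marked zinc finger gene not shorter with guide 1, at 3290 bp with guide 1, 554 bp with guide 2 and 3288 bp with the control guide. ZNF791 came next, with 3784, 1483 and 3964 bp. Both orders turned in other settings, as guide 1 had 75.3% of the control coverage of ZNF491 with peaks within 5000 bp joined, and 112% of that of ZNF791 with peaks of at least 500 bp.

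Of the other coding genes, DOCK6 had 257 bp with guide 1, 0 bp with guide 2 and 1506 bp with the control guide. C19orf38 had 0, 0 and 428 bp in these lines. TSPAN16, a tetraspanin gene, had 654 bp under a guide 1 peak and 0 bp under guide 2 and control peaks, and was the one coding gene of the region marked in a guide list and not in the control list. That guide 1 peak had a score of 11, above only 0.348% of the peaks in its list.

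**Figure D4:**
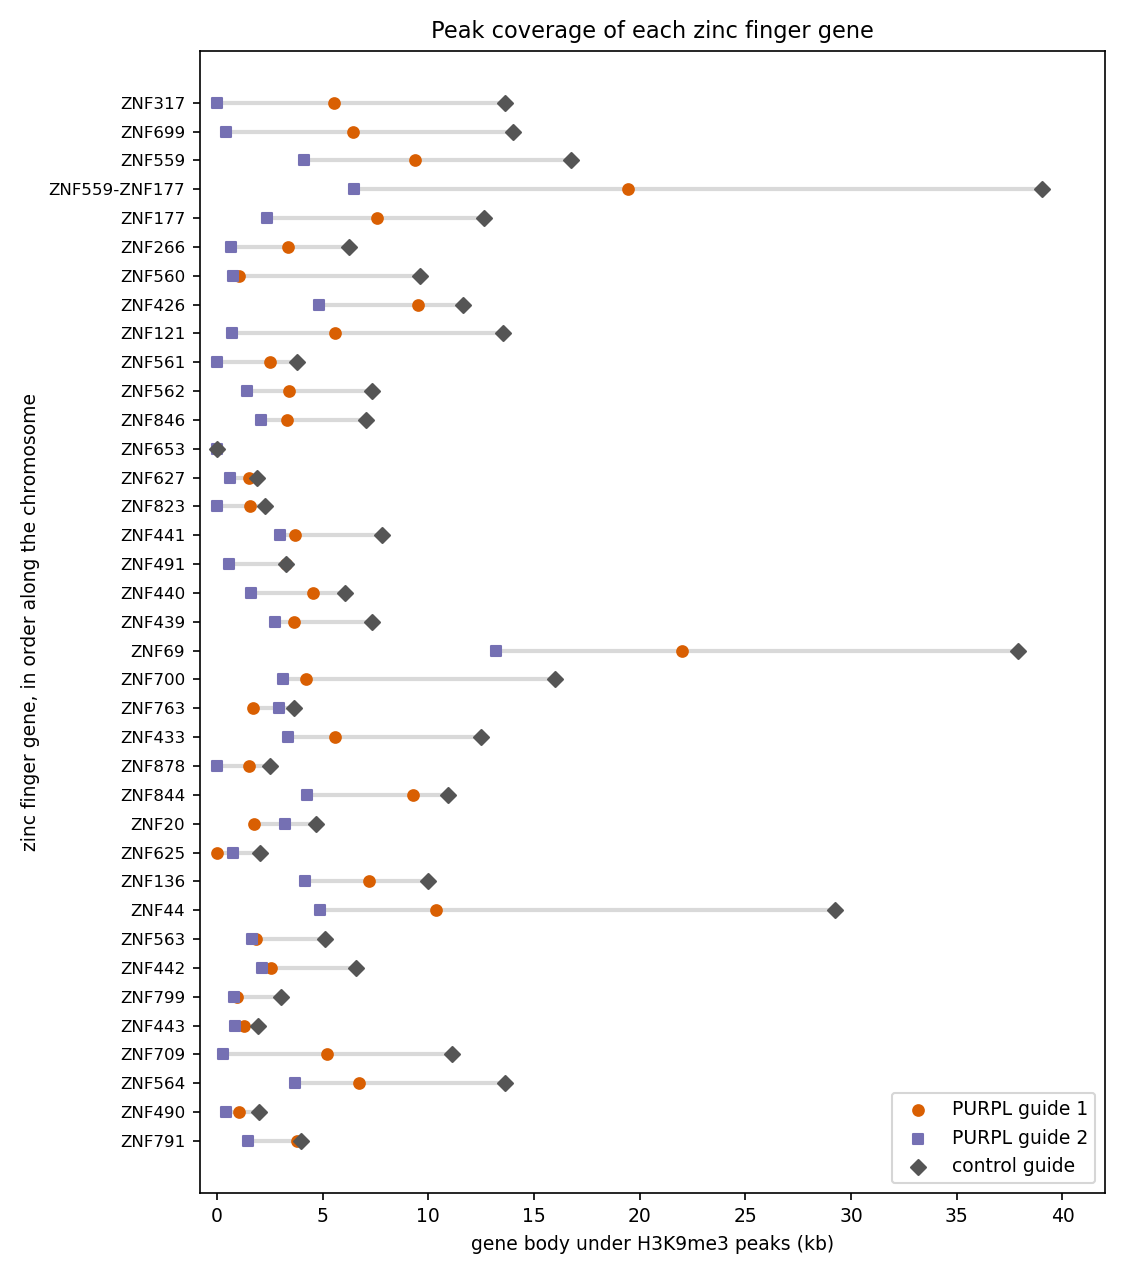
Length of each zinc finger gene body under H3K9me3 peaks (kb) with PURPL guide 1 (circles), PURPL guide 2 (squares) and the control guide (diamonds), for the 37 zinc finger genes in order along the chromosome; overlapping genes share bases. The control point lies farthest right for 35 of the 36 marked genes, the guide 1 point of ZNF491 lies under the control point (3290 and 3288 bp), and ZNF653 is at 0 in all 3 lists.

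More peaks on a gene did not mean more covered bases. Guide 1 had more peaks than the control on 8 of the 36 genes, ZNF699, ZNF426, ZNF823, ZNF69, ZNF700, ZNF763, ZNF136 and ZNF709, and all 8 had a shorter covered length. Guide 2 had more peaks than the control on 5 genes, ZNF426, ZNF69, ZNF700, ZNF136 and ZNF442, all 5 shorter in length as well. The longest peak was shorter than in the control on 35 of the 36 genes with guide 1 and on 36 with guide 2. These counts were not made over all control-marked coding genes. Coverage was shorter with both guides on 92.6% of those.

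Coverage was higher toward the 3′ end of the genes in every line. For the 34 zinc finger genes with a known strand, bodies were divided into 5 equal parts and the covered share of each part was pooled over genes, so bases of overlapping genes count once per gene. With guide 1 the covered shares from 5′ to 3′ were 4.64%, 10.2%, 9.55%, 25.3% and 36.2%. With guide 2 they were 1.30%, 5.29%, 3.42%, 13.1% and 16.6%. With the control guide they were 7.83%, 23.5%, 27.6%, 54.4% and 57.0%. The last of the 5 parts held the most covered bases in 20 of 32 marked genes with guide 1, 17 of 30 with guide 2 and 16 of 33 with the control guide, and the first part in 0 genes of each list.

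The 3′ end also kept the most of its control coverage. From 5′ to 3′ guide 1 had 59.2%, 43.5%, 34.6%, 46.5% and 63.5% of the control bases of each part. Guide 2 had 16.6%, 22.5%, 12.4%, 24.0% and 29.1%. With guide 1 the first part thus came close to the last. In the first part, where control coverage was low, ZNF69 alone held 6118 of 8206 covered bases with guide 1, 1801 of 2296 with guide 2 and 5704 of 13853 with the control guide. At ZNF440 the last part had 3316 bp with guide 1, 1621 bp with guide 2 and 4189 bp with the control guide, while its first 3 parts had 0 bp in all lists; at ZNF266 all bases under peaks with guide 1 (3369 bp) and guide 2 (657 bp) lay in the last part, against 74.2% of those in the control. Both genes were named after their values were seen. Not every gene had its coverage at the 3′ end. ZNF69 had 7.73%, 19.3% and 8.57% of its covered bases in the last part with guide 1, guide 2 and the control guide, and its annotated body runs on over ZNF700. ZNF44 had 9.25%, 4.51% and 10.0% there, and ZNF562 had 0% in all 3 lists. The 403 zinc finger genes elsewhere with a known strand had 11.4%, 4.59% and 20.5% of the last part covered, and 1.86%, 0.786% and 4.97% of the first.

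**Figure D5:**
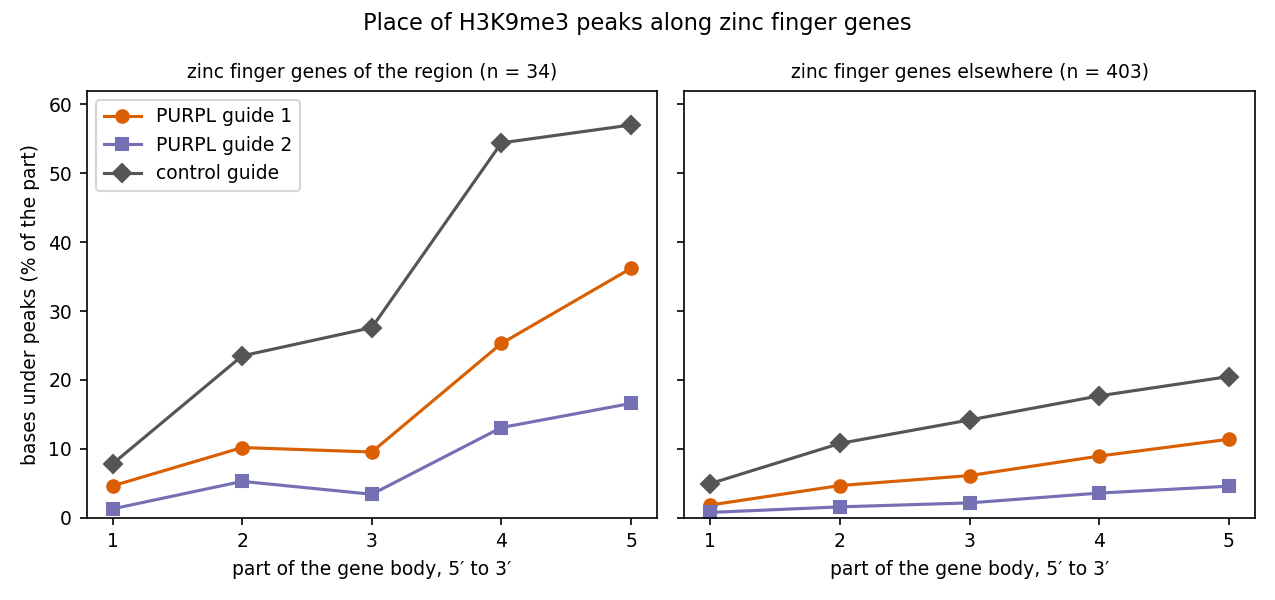
Share of bases under H3K9me3 peaks (%) in each of 5 equal parts of the gene body from 5′ to 3′, for PURPL guide 1, PURPL guide 2 and the control guide, in the 34 zinc finger genes of the region with a known strand (left) and in 403 such genes elsewhere (right). In both panels coverage is lowest in the first part and highest in the last, 36.2%, 16.6% and 57.0% in the region.

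Promoters were nearly free of peaks in all lines. Of the zinc finger genes of the region, 34 had a promoter window in the RefSeq table, 36 windows in all; ZNF559, ZNF559-ZNF177 and ZNF763 are named only. A peak reached the window of 1 gene with guide 1, ZNF177, of 0 genes with guide 2 and of 0 with the control guide. Over all coding genes with a window, 0.114%, 0.0632% and 0.158% had one under a peak with guide 1, guide 2 and the control guide, so promoters were rarely reached anywhere. The 60 other coding genes of the region with a window had 0 in each list. The guide 1 peak at ZNF177, whose part in the window is printed in capitals above, lay in the body of ZNF559-ZNF177, 676 bp from the nearest control peak, and had a score of 21.

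From the edge of a zinc finger gene's promoter window to the nearest peak the median distance was 10.5 kb with guide 1, 11.3 kb with guide 2 and 7.31 kb with the control guide. Of the 34 genes 2, 0 and 2 had a peak within 1000 bp. The ZNF426 window was closest in the control, at 311 bp, where guide 1 stood at 4529 bp and guide 2 at 1127 bp. For the ZNF69 window these distances were 12321 bp with guide 1, 12526 bp with guide 2 and 9604 bp with the control guide. The promoter windows held a median of 17.5 CG dinucleotides, from 8 to 30, against 21.0 over the windows of all coding genes. The GC box GGGCGG, searched on both strands, stood in 29 of 36 windows (80.6%), against 56.3% of the windows of all coding genes. The ZNF69 window printed above holds 1 such match, the ZNF44 window 2 and the ZNF177 window 0.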

How the data were processed

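H3K9me3 ChIP-seq peak lists of 3 BJ cell lines, 1 list per line, were analysed; the 6 samples were an H3K9me3 and an input library of each line. Each deposited list gives a position and a score per peak; the score is the authors' own value, on a scale not given in the sources used here, and served to describe, rank or filter peaks. MACS2 2.2.9.1, deepTools 3.5.1, Bowtie2 2.4.2 and GATK, with the builds hg38 and GRCh38.p13, are named in the submitters' processing notes. The sources used here do not give their settings or the read depth, and no value is corrected for depth. Lists were assigned by their samples' labels, since the peak names inside them carry other guide names. All value columns were used (0 left out).

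Gene bodies, strands and promoter windows came from RefSeq GRCh38.p14, whose chromosomes have the coordinates of GRCh38.p13. Exon positions were not used. Peaks counted as shared at an overlap of at least 1 bp, and a gene was marked when a peak overlapped its body. Its covered length is its bases under peaks. Genes with names beginning in ZNF were taken as zinc finger genes. Values were named for ZNF44, ZNF69 and ZNF559-ZNF177, the 12 zinc finger genes with the longest control coverage, and the 5 with the largest and 5 with the smallest share left among those with at least 2000 bp. Coding genes marked in a guide alone, other coding genes with the longest control coverage, and the 3 widest and 3 highest-scoring peaks per list were added. The members and lists were chosen with earlier results of these data known. Overlap and length calculations were tested on simulated data and used Python 3.11.15, numpy 2.4.6, pandas 2.3.3 and scipy 1.17.1; figures used matplotlib 3.10.9. Alternatives were score, width and overlap limits, joined peaks and gene ends.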

Additional observations from a re-analysis of the deposited data

Results flagged for a closer look

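ZNF491 was flagged because its covered length was shorter than in the control with guide 2 and nearly equal to the control with guide 1. With guide 1 its covered length was 2 bp above that of the control guide, and with guide 2 the difference, guide 2 minus control, was -2734 bp. Each value rests on 1 library, and the difference between the guides was not tested. With peaks within 5000 bp joined, guide 1 had 75.3% of the control coverage of this gene.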

How the results depend on the processing

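The length under peaks in the region stayed below the control under every alternative tried, at 38.5% to 57.3% of the control length with guide 1 and 8.93% to 25.9% with guide 2. The number of peaks did not. With equal numbers of top-scoring peaks per list, guide 1 had 118% and guide 2 114% of the control number of peaks, 64.6% and 50.8% of control peaks were overlapped, and 28.6% and 28.4% of guide peaks had no control peak. With peaks within 5000 bp joined, the numbers were 110% and 90.0%, the overlapped shares 86.0% and 70.0%, and the share without a control peak was 6.67% with guide 2. With peaks limited to scores of 22, the pooled median, or more, guide 2 had 36.7% of the control peaks in number and 8.93% of the length, overlapped 21.7% of control peaks, and had 27.3% of its peaks without a control peak; its share left was 6.14% in the ZNF559-ZNF177 block, 10.0% in the ZNF69 and ZNF44 block and 9.52% over zinc finger genes. Zinc finger genes marked then numbered 23 with guide 1 and 16 with guide 2. When at least 50% of a peak had to be overlapped, 20.2% and 2.33% of control peaks were. With peaks of at least 500 bp, 8.75% and 6.25% of guide 1 and guide 2 peaks had no control peak. For single zinc finger genes, 272 of 348 recomputed values stayed within 1.5 times the value reported, 73 moved further and 3 changed direction. Those 3 were ZNF491 with guide 1 and joined peaks (75.3% of the control coverage), and ZNF791 with guide 1 at equal peak numbers (103%) and at peaks of at least 500 bp (112%). The cause of these changes was not tested. The alternatives were computed for the region and its genes, not for the whole lists. No paired analysis was possible because each line has 1 H3K9me3 library and no result comes from a test. Unknown depth limits all comparisons between lists.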

Other observations

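Non-coding genes and pseudogenes of the region carried the mark as well. Some of them overlap zinc finger genes counted above, as LOC105372269 overlaps ZNF560 and LOC100289333 overlaps ZNF44. Part of their coverage is therefore the same bases. Of 25 long non-coding RNA genes 6 were marked with guide 1, 4 with guide 2 and 7 with the control guide, where 2.48%, 1.15% and 6.47% of all 18177 such genes were. Of 7 transcribed pseudogenes 3, 2 and 4 were marked, against 4.82%, 3.13% and 7.54% of 1246. ZNF433-AS1, an antisense RNA gene whose body runs over ZNF433, had 8116 bp under peaks with guide 1, 4109 bp with guide 2 and 24063 bp with the control guide. The transcribed pseudogene LOC100289333 had 9732, 2388 and 20277 bp in these lines. C3P1, a complement component pseudogene in the middle stretch that holds few peaks, had 2416, 1437 and 4285 bp. Of 51 other pseudogenes 4, 1 and 6 were marked with guide 1, guide 2 and the control guide, against 0.638%, 0.309% and 1.26% of 15212, and the 10 miRNA genes and 3 snoRNA genes had 0 in every list. These genes were named after their values were seen.

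The limits of the region fell in stretches without peaks. The first peaks inside its start stood 246 kb from it with guide 1, 403 kb with guide 2 and 246 kb with the control guide, and the last ones before it 83.9, 85.7 and 80.2 kb away. The last peaks inside its end stood 71.5, 71.7 and 68.4 kb from it, and the first ones beyond it 456, 239 and 637 kb away with guide 1, guide 2 and the control guide.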
